A study of Mus musculus with 4 samples.

Results

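Chromatin accessibility was compared between the nuclei that the authors assigned to a macrophage cluster (Macro) and to a dendritic cell cluster (Dend), mouse by mouse, in inguinal white adipose tissue (iWAT), the subcutaneous fat depot of the flank. Single-nucleus ATAC-seq (snATAC-seq) reads open chromatin, because the Tn5 transposase inserts sequencing adapters where DNA is free of nucleosomes. Of 32552 deposited nuclei in 12 clusters, 1229 were Macro and 677 were Dend. Counts were summed over the nuclei of a cluster within a mouse, and the 17 of 21 mice with at least 10 nuclei of each cluster were used, which gave 950 Macro and 658 Dend nuclei. All mice were male C57BL/6 animals of 8 weeks, 3 to a group, with no transgene. The D0_RT mice were kept at room temperature (22 °C) and sampled before any intervention. The D1_C, D3_C and D7_C mice were exposed to cold (6.5 °C by the labels) for 1, 3 or 7 days, and the D1_CL, D3_CL and D7_CL mice received CL, a selective agonist of the β3-adrenergic receptor, at 1 mg/kg for the same times at room temperature. The 4 mice left out were D1_CL mouse 3, D3_C mouse 1 and D3_CL mice 1 and 2, which held 0 to 8 Dend nuclei each.

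Macrophages and dendritic cells are both myeloid cells that sample their surroundings. Macrophages of fat stay in the tissue, depend on the CSF1 receptor, take up dying cells, and break down protein and lipid in lysosomes. Dendritic cells depend on the FLT3 receptor and present peptides to T cells. When a dendritic cell matures it gains the chemokine receptor CCR7, the actin-bundling protein fascin and costimulatory molecules, signals through NF-kB, and migrates to the draining lymph node.

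The 17 Macro libraries held 24 to 87 nuclei each (median 53) and 18973 to 187300 counts on genes. The 17 Dend libraries held 10 to 154 nuclei (median 26) and 10005 to 217183 counts. A count is a nucleus with a read in a peak, so a peak can count a nucleus only once. In the smallest Dend library, that of D7_CL mouse 3, a single count is worth 83.3 CPM (counts scaled to a common total over the tested features), so a gene at 0 there was not detectable at that depth rather than absent. The median count per nucleus did not pass the test between the clusters, with a log2 ratio of Macro over Dend of -0.17 ± 0.46 (SD, n = 17 mice, Macro deeper in 7 of 17, sign-flip permutation p = 0.139), while the mean count per nucleus gave a ratio of -0.35, lower in Macro (Macro deeper in 1 of 17, permutation p = 0.00066). Among the Macro and Dend nuclei, 20 shared their barcode with a Macro or Dend nucleus of another mouse. Over all 32552 nuclei of the 12 clusters, 8739 had a barcode found in more than 1 mouse. How many of those were Macro or Dend nuclei is not given here. Gene accessibility below is the sum over the peaks of a gene body and the 2000 bases upstream, in CPM scaled between libraries. Levels pooled over all nuclei of a cluster are scaled to the total over all genes or peaks, which is not the same scale. Fold changes are log2 values of Macro minus Dend with their SE. The clusters were drawn by the authors from the same accessibility, so a gene that differs between them describes the clusters and is not an independent test of them.

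The balance of the clusters differed between untreated and treated mice. Dend nuclei made up 59.5% (95% Wilson interval 52.3% to 66.3%), 63.9% (57.7% to 69.7%) and 36.1% (28.1% to 44.9%) of the Macro and Dend nuclei in the 3 D0_RT mice, a mean of 53.1% ± 15.0 (SD, n = 3). The intervals cover counting error only, and D0_RT mouse 3 lay below the other D0_RT mice beyond them. The means were 29.4% ± 5.52 in D1_C, 16.5% ± 10.1 in D3_C and 44.6% ± 2.69 in D7_C mice (SD, n = 3 each). After CL they were 27.3% ± 21.1 in D1_CL, 14.0% ± 12.3 in D3_CL and 31.8% ± 19.6 in D7_CL mice (SD, n = 3 each). The spread among the CL mice was wide, from 4.55% to 46.3% at day 1 and from 19.8% to 54.4% at day 7, and D7_C, D1_CL and D7_CL mice overlapped the D0_RT mice. D3_CL mouse 2 had 0 Dend nuclei beside 26 Macro nuclei, which allows a share of up to 11.5% by the rule of 3 counts (Wilson upper limit 12.9%). Over all 21 mice the share was 25.9 percentage points higher in the 3 D0_RT than in the 18 treated mice, whose mean was 27.3% ± 15.5 (two-sided exact permutation test over 1330 arrangements, p = 0.0143, smallest possible p 0.00075). The test rests on few untreated mice, since p was 0.0632 without D0_RT mouse 1 and 0.0947 without D0_RT mouse 2, with differences of 22.7 and 20.5 points. As a log2 ratio of Dend to Macro nuclei the difference was 1.90 (exact permutation p = 0.0526). As a share of all nuclei, Dend held 2.69% to 10.8% in the D0_RT mice and 0% to 2.84% in the treated mice, and fewer nuclei of a type cannot be told apart from more nuclei of the others.

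**Figure D1:**
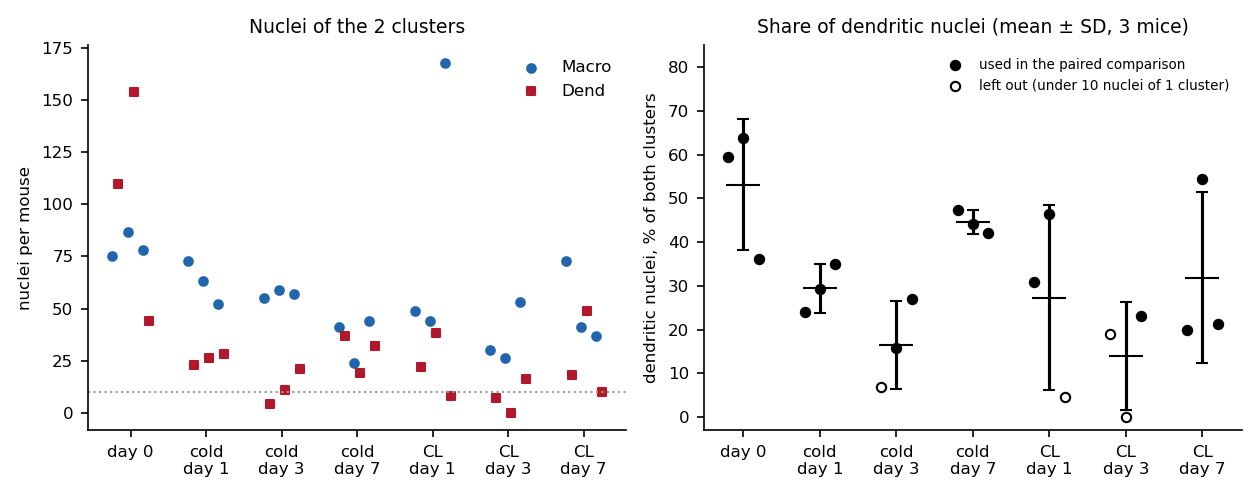
Nuclei of the Macro and Dend clusters in each of the 21 mice by group (left, dotted line at the minimum of 10 nuclei) and the Dend share of both clusters in percent with the mean and SD of 3 mice (right, open points for the mice left out of the paired comparison). The Dend share lies between 36.1% and 63.9% in the 3 D0_RT mice and is 0% in D3_CL mouse 2.

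The cluster names were checked against marker genes. Beside each count below stand all 7374 genes with at least 3 counts in enough libraries, of which 13.4% were higher in Macro and 11.9% in Dend. These shares rise with the counts, to 32.3% and 28.6% of the 910 genes that passed a minimum of 10. Of the 161 tested list genes, 48 passed that minimum, so the lower shares are too low a base for lists of genes with many counts. Of 16 macrophage markers, 5 had enough counts to be tested and 4 of them were higher in Macro. Mertk, a receptor for dying cells, stood at 77.6, 245 and 419 CPM (lowest, median and highest of 17 mice) in Macro and at 0, 57.7 and 166 CPM in Dend. Csf1r, the receptor for the macrophage growth factor, stood at 83.6, 262 and 380.0 CPM in Macro and 21.5, 84.2 and 167 CPM in Dend. Both genes were higher in Macro in 16 of 17 mice, and their ranges in the clusters overlapped. The log2 difference was 1.48 ± 0.16 for Mertk (adjusted p = 6.49e-19, edgeR's quasi-likelihood test with the mouse as block) and 1.21 ± 0.15 for Csf1r (adjusted p = 1.23e-13). The mannose receptor Mrc1 differed by 0.87 ± 0.17, while Cd68 stood at 72.0 CPM in Macro and 71.5 CPM in Dend (medians) and did not pass the test. The 11 untested markers had 438 counts in Macro and 216 in Dend over all mice and went both ways. C1qb had 50 counts in Macro and 5 in Dend, Folr2 41 and 6, C1qc 37 and 6, and C1qa 27 and 8. Adgre1, a surface marker of mouse macrophages, had 47 and 62, with its level higher in Dend in 13 mice and in Macro in 3, and Ms4a7 was higher in Dend in 10 of 17 mice.

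Dendritic cell markers were split. Of 15, 11 were tested, 6 were higher in Dend and 2 were higher in Macro. Flt3, the growth factor receptor of the lineage, stood at 117, 317 and 514 CPM in Macro and 221, 583 and 814 CPM in Dend (-0.80 ± 0.11, Dend higher in 16 of 17 mice), and Zbtb46, a transcription factor of classical dendritic cells, differed by -0.48 ± 0.14. Irf8, which the type 1 classical dendritic cell needs, went the other way in every mouse, with 181, 348 and 551 CPM in Macro and 42.1, 154 and 279 CPM in Dend (1.13 ± 0.14, adjusted p = 6.69e-15), although each of its 10 peaks also lies in another gene model and at its promoter alone the difference was 0.47 (adjusted p = 0.0909). Clec9a, a receptor of the same subset, was also higher in Macro (0.59 ± 0.19). Batf3, a factor this subset needs, was higher in Dend instead, and the level of Xcr1, another receptor of the subset, which was untested, was higher in Dend in 10 of 17 mice. Clec10a and Cd209a, also among the 15 listed markers, had 70 and 14 counts in Macro but 4 and 1 in Dend. The other markers higher in Dend were Fscn1, Ccr7 and Dpp4, and Itgax (0.10 ± 0.18), Itgae (-0.17 ± 0.16) and Irf4 (-0.01 ± 0.16) did not pass.

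At a minimum count of 10 per gene, 910 genes could be tested, and 294 (32.3%) were higher in Macro and 260 (28.6%) in Dend at an adjusted p under 0.05. At a minimum count of 3, which reaches the markers and is used for every gene named here, 7374 genes were tested, of which 986 (13.4%) were higher in Macro and 878 (11.9%) in Dend. Of the 554 genes called at the higher minimum, 499 were called at the lower. In all 17 mice 75 genes were higher in Macro and 74 in Dend. Set against the other clusters, 528 of the 878 genes higher in Dend (60.1%) had their highest pooled level in Dend among the 12 clusters. Of the 986 genes higher in Macro, 246 (24.9%) were highest in Macro, 170 (17.2%) in B cells and 101 (10.2%) in vascular smooth muscle cells. The shares over all tested genes were 14.1% for Dend and 7.91% for Macro. For B cells and vascular smooth muscle cells they were 18.7% and 10.9%, so the Macro-higher genes were not above them there. Genes called higher in a cluster were chosen against the other and could pass the count minimum through that cluster alone. Their shares of 60.1% and 24.9% therefore partly follow from the choice. The shares over all tested genes carry no such choice between the clusters.

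The genes that dendritic cells gain on maturation were higher in Dend almost throughout. Of 20 such genes, 14 were tested, 13 were higher in Dend and 0 in Macro, with a median of -1.08 against 0.03 over all tested genes. These medians cover only members with enough counts in enough libraries, which the libraries of 1 cluster alone could supply. A gene could thus be tested through the cluster where it is high. The counts and medians of this and the other lists therefore partly follow from the filter. The lists were also chosen with earlier results of these data known, so their counts describe the clusters and are no independent support. Some genes, such as Relb, are on more than 1 list, so the counts of different lists are not separate. Fscn1, which encodes fascin, stood at 0, 15.4 and 59.6 CPM in Macro and 83.3, 219.7 and 425 CPM in Dend, with 0 counts in Macro of 5 mice. In the D0_RT mice it stood at 32.7 ± 17.7 CPM in Macro and 248 ± 55.1 CPM in Dend (SD, n = 3). The 14 treated mice held 15.9 ± 16.9 CPM in Macro and 243 ± 103 CPM in Dend (SD), so the clusters did not overlap in either set, although the lowest Dend level is a single count. Cacnb3, a calcium channel subunit, stood at 0, 9.17 and 58.4 CPM in Macro and 52.9, 211 and 336 CPM in Dend, higher in Dend in 17 of 17 mice although the highest Macro library lay above the lowest Dend library. The differences were -2.33 ± 0.17 for Fscn1 (adjusted p = 1.59e-40) and -2.41 ± 0.17 for Cacnb3 (adjusted p = 1.08e-40). With so few counts in Macro these folds depend on the prior count of 2 added in the fit, and were -3.07 for Fscn1 and -3.37 for Cacnb3 at a prior count of 0.5.

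Ccr7, the receptor that guides dendritic cells along lymphatics, stood at 0, 48.6 and 234 CPM in Macro and 0, 233 and 314 CPM in Dend (-1.56 ± 0.16), with Dend higher in 15 mice. Socs2, a feedback inhibitor of cytokine receptors, stood at 0, 55.0 and 87.3 CPM in Macro and 122, 246 and 367 CPM in Dend, without overlap between the libraries (-1.69 ± 0.16). Samsn1, an adaptor of haematopoietic cells, stood at 58.4, 283 and 432 CPM in Macro and 249.9, 836 and 1260.2 CPM in Dend (-1.47 ± 0.10, adjusted p = 2.70e-42), and was higher in Dend within every mouse. Tbc1d4, a Rab GTPase-activating protein, stood at 158, 286 and 388 CPM in Macro and 423, 777 and 925 CPM in Dend (-1.30 ± 0.11), again without overlap, but its promoter peaks alone differed by -0.05 (adjusted p = 0.943). The annexin gene Anxa3 (-1.64), Tmem123 (-0.85), the NF-kB adaptor Traf1 (-0.85), the IL-15 receptor chain Il15ra (-0.73), the amino acid oxidase Il4i1 (-0.57), Cd83 (-0.57) and Cd200 (-0.47) were also higher in Dend, the last with a call that ended without any of 7 mice. Birc3 (-0.27 ± 0.12, adjusted p = 0.0885) did not pass. The 6 untested members, among them Ccl22, Ccl17, Il12b and Relb, had 386 counts in Dend and 148 in Macro.

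**Figure D2:**
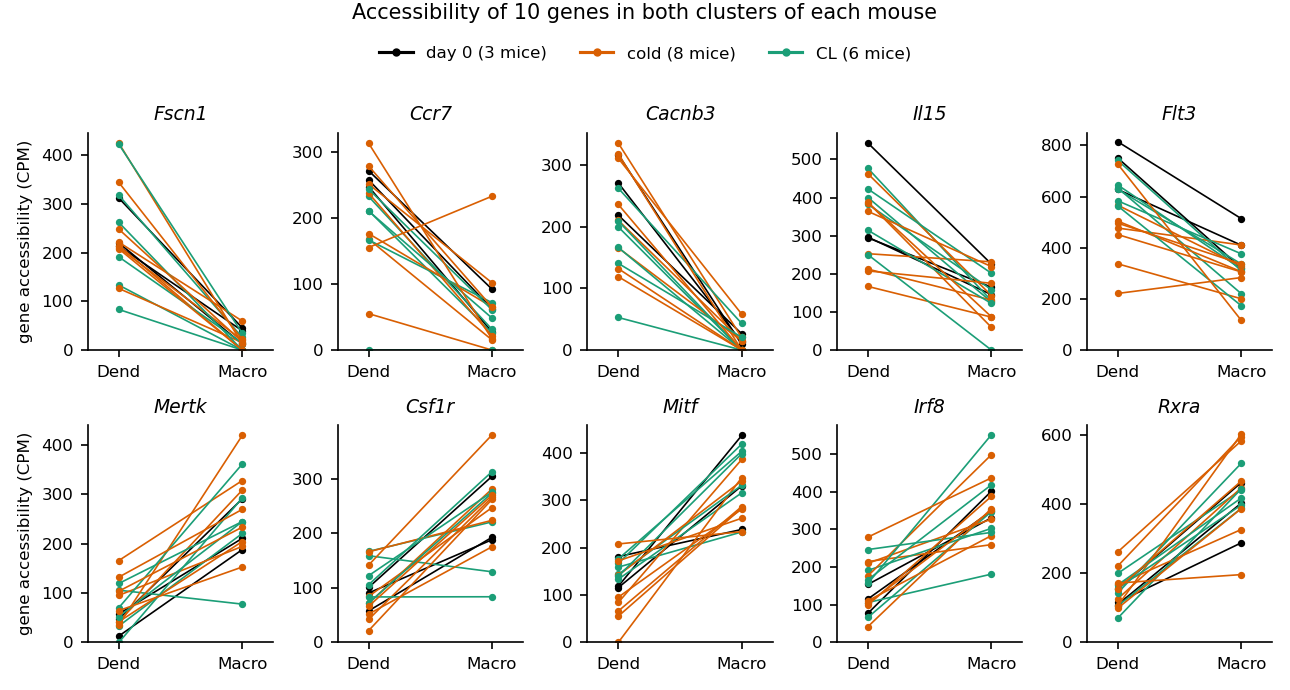
Gene accessibility (CPM, vertical axes) of 10 genes in the Dend and Macro libraries of the 17 mice, with a line for each mouse coloured by day 0, cold or CL. Fscn1, Cacnb3 and Il15 lie higher in Dend in 17 of 17 mice, Irf8, Rxra and Mitf lie higher in Macro in 17 of 17, and Mertk and Csf1r lie higher in Macro in 16 of 17.

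Genes of the NF-kB pathway, the inflammatory signalling route used in dendritic cell maturation, were described by role. Among the DNA-binding subunits, 4 of 5 were tested and 2 were higher in Dend, Rel (-0.51 ± 0.17) and Nfkb2 (-0.39 ± 0.14), while Nfkb1 (-0.02 ± 0.12) and Rela (-0.14 ± 0.17) did not pass. Relb, the partner of Nfkb2 in the alternative pathway, was untested as a gene with 28 counts in Macro and 73 in Dend. Among the inhibitors, 9 of 10 were tested and 3 were higher in Dend, Tnip3 (-0.85 ± 0.14), the ubiquitin-editing enzyme Tnfaip3 (-0.35 ± 0.13) and Tnip1 (-0.34 ± 0.13). The calls of Tnip1, Nfkb2 and Tnfaip3 ended on leaving out any of 9, 4 and 3 mice, with adjusted p values of up to 0.231, 0.12 and 0.173. At the promoter alone Tnfaip3 stood at 0.03 and did not pass, and with nuclei thinned to 500 counts Tnip1 stood at 0.12. Among the kinases and adaptors, 13 of 15 were tested, 8 were higher in Dend and 0 in Macro, with a median of -0.43. Ikbkb, the catalytic kinase of the classical pathway, stood at 102, 132 and 209 CPM in Macro and 0, 311 and 476 CPM in Dend (-0.94 ± 0.14), with overlap between the libraries and Dend higher in 15 of 17 mice. The ubiquitin ligase Birc2 stood at 58.4, 214 and 334 CPM in Macro and 167, 382 and 593 CPM in Dend (-0.95 ± 0.13, Dend higher in 15 of 17 mice). The adaptors Traf3 (-0.74), Traf6 (-0.65), Traf2 (-0.62) and Tank (-0.43) and the kinase of the alternative pathway Map3k14 (-0.42) were higher in Dend as well, although at promoter peaks alone Traf3 stood at 0.12 (adjusted p = 0.824) and the Map3k14 call ended without D0_RT mouse 2 (-0.36, adjusted p = 0.0526). The kinases Tbk1 (0.03 ± 0.17) and Map3k7 (0.20 ± 0.17) and the scaffold Ikbkg (0.04 ± 0.16) did not pass.

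Costimulation and PD-1 ligand genes were higher in Dend where they differed. Of 14 costimulation and PD-1 ligand genes, 10 were tested, 8 were higher in Dend and 0 in Macro, with a median of -0.50, and their summed level was higher in Dend in 17 of 17 mice. Cd40, the receptor through which T cells activate dendritic cells, stood at 31.5, 101 and 155 CPM in Macro and 55.3, 177 and 294 CPM in Dend (-0.73 ± 0.15, Dend higher in 16 of 17 mice). Icosl (-0.96), the CD28 ligand Cd80 (-0.52), the adhesion molecule Icam1 (-0.49) and the PD-1 ligand Cd274 (-0.40) were higher in Dend, while the second CD28 ligand Cd86 (-0.22 ± 0.14) and the second PD-1 ligand Pdcd1lg2 (-0.16 ± 0.12) did not pass. The Cd80 call ended on leaving out 1 mouse and the Cd274 call without any of 2 mice. Tnfrsf9 was higher in Dend (-1.06), although all 8 of its peaks also lie in another gene model.

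Cytokine genes differed in both directions. Of 28 cytokines and receptors, 17 were tested, 8 were higher in Dend and 4 in Macro. Il2ra, the high-affinity chain of the IL-2 receptor, stood at 101, 149 and 245 CPM in Macro and 221, 420.1 and 576 CPM in Dend, higher in Dend in 17 of 17 mice (-1.37 ± 0.13, adjusted p = 1.39e-24). Il15, a cytokine that keeps T and NK cells alive, stood at 0, 143 and 231 CPM in Macro and 167, 364 and 543 CPM in Dend, also higher in Dend within every mouse (-1.01 ± 0.13). The IL-7 receptor gene Il7r (-1.01), the growth factor Csf1 (-0.83), the GM-CSF receptor chain Csf2rb (-0.66) and the TNF receptor Tnfrsf1b (-0.48) were higher in Dend. The transforming growth factor gene Tgfb1 (0.77 ± 0.14, Macro higher in 16 of 17 mice), the IL-6 receptor Il6ra (0.65) and the IL-10 receptor chain Il10rb (0.45) were higher in Macro.

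On the Macro side, uptake and lysosome genes were higher. Of 18 genes for uptake of dying cells and scavenging, 8 were tested, 6 were higher in Macro and 0 in Dend, with a median of 0.68. Beside Mertk and Mrc1 these were the lipoprotein receptor Scarb1 (0.88), the Mertk relative Axl (0.73), the endocytic receptor Lrp1 (0.63) and the integrin chain Itgb5 (0.41), while the lipid receptor Cd36 (0.26 ± 0.15) did not pass. The Itgb5 call ended without any of 4 mice. The pooled sum of this list was 1719 CPM in Macro and 837 CPM in Dend, but 1825 CPM in adipocytes, 1718 CPM in the APC1 cluster and 1701 CPM in vascular endothelial cells. Of 20 lysosome and lipid genes, 13 were tested, 8 were higher in Macro and 1, the cholesterol carrier Npc2 (-0.48), in Dend. The pooled sum of the lysosome and lipid list was 2525 CPM in Macro and 1603 CPM in Dend. It was 2330 CPM in adipocytes, 1851 CPM in APC1 and 1751 CPM in vascular endothelial cells. Mitf, a transcription factor of lysosomal genes, stood at 233, 330.0 and 436 CPM in Macro and 0, 139.6 and 208 CPM in Dend without overlap between the libraries (1.19 ± 0.14, adjusted p = 1.67e-15). Abca1, which exports cholesterol, stood at 153, 306 and 627 CPM in Macro and 0, 119 and 387 CPM in Dend (1.01 ± 0.14), and the cathepsins Ctsb (0.88) and Ctsd (0.80), the signalling adaptor Tyrobp (0.93), the lipid droplet protein Plin2 (0.62), the acid lipase Lipa (0.47) and Tfeb (0.43), a relative of Mitf, were higher in Macro too.

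Innate recognition genes were likewise higher in Macro where they differed. Of 20 pattern recognition receptors and adaptors, 9 were tested, 4 were higher in Macro and 0 in Dend. Tlr7, a sensor of RNA, stood at 0, 100.3 and 125 CPM in Macro and 0, 16.5 and 83.3 CPM in Dend (1.26 ± 0.20, Macro higher in 16 mice and Dend in 0). Nod1 (1.02 ± 0.14) and Tlr4, the sensor of lipopolysaccharide (0.90 ± 0.18), were higher in Macro, as was Tlr6 (0.50), while Tlr2 (0.06 ± 0.17), Tlr9 (-0.14 ± 0.16) and Myd88 (0.10 ± 0.15) did not pass. Of 13 complement genes and receptors, 3 were tested and the integrin chains Itgb2 (0.98 ± 0.15) and Itgam (0.80 ± 0.17) were higher in Macro, Itgam with all 9 of its peaks shared with another gene model. The only testable Fc receptor of 7, Fcgrt, was higher in Macro (0.58 ± 0.19).

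MHC class II genes, which load and display peptides to CD4 T cells, were not higher in Dend. Of 14, 11 were tested, 4 were higher in Macro, 0 in Dend, and 7 did not pass. The master regulator Ciita stood at 126, 262 and 432 CPM in Macro and 51.9, 181 and 387 CPM in Dend (0.52 ± 0.13, Macro higher in 12 of 17 mice), and H2-Ob (0.62), H2-DMb2 (0.51) and the invariant chain Cd74 (0.40) were higher in Macro with overlapping ranges. H2-Ab1 (0.33 ± 0.14, adjusted p = 0.0635), H2-Aa (0.38 ± 0.15, adjusted p = 0.0506) and H2-Eb1 (-0.08 ± 0.14) did not pass. Summed over the list, the pooled level was highest in B cells at 3453.5 CPM, against 1737 CPM in Macro and 1484 CPM in Dend. Without the nuclei that held a count at 2 or more B or T cell marker genes, 281 Macro and 165 Dend nuclei over the 21 mice, 998 of 3716 tested genes were called. In that fit Ciita (0.46, adjusted p = 0.0445) and Cd74 (0.43, adjusted p = 0.0200) were still higher in Macro, H2-DMb2 (0.40, adjusted p = 0.156) did not pass and H2-Ob had too few counts.

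Of 19 chemokine receptors, 8 were tested. Beside Ccr7, the atypical receptor Ccrl2 was higher in Dend (-0.56 ± 0.17), Ccr9 (0.35 ± 0.14) was higher in Macro with a call that ended without any of 8 mice, and Cx3cr1 stood at 552 CPM in Macro and 646 CPM in Dend (medians, -0.16 ± 0.10) and did not pass. None of the 21 chemokine ligand genes had enough counts to be tested. Over the pooled nuclei Ccl22 had 6 counts in Macro and 66 in Dend, Ccl5 had 3 and 62, and Ccl12 had 34 and 2, which are values without a test.

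Transcription factor genes differed in both directions. Of 31 myeloid factors, 29 were tested, 10 were higher in Macro and 9 in Dend. Rxra, a partner of lipid-sensing nuclear receptors, stood at 196, 442 and 603 CPM in Macro and 70.4, 154 and 262 CPM in Dend, higher in Macro in 17 of 17 mice (1.37 ± 0.13, adjusted p = 1.81e-22). Bach2 (0.51 ± 0.10) was higher in Macro in 17 of 17 mice, and Zeb2 (0.61), Cebpa (0.58), Ikzf1 (0.56), Maf (0.52) and Runx1 (0.34) were higher in Macro in 11 to 16 mice. At promoter peaks alone Ikzf1 stood at -0.03 (adjusted p = 0.973), and the Maf call ended without D1_C mouse 3 (0.49, adjusted p = 0.0507). Etv6 stood at 818, 1129 and 1316 CPM in Macro and 1166, 1870.4 and 2413 CPM in Dend and was higher in Dend in 17 of 17 mice (-0.70 ± 0.07). The repressor Etv3 stood at 25.9, 78.6 and 175 CPM in Macro and 84.2, 236 and 337 CPM in Dend (-1.23 ± 0.15, Dend higher in 16 of 17). Batf3 (-1.14 ± 0.18), Stat4 (-0.94 ± 0.14), Stat5a (-0.69 ± 0.16), Stat3 (-0.66 ± 0.14), Id2 (-0.42 ± 0.15) and Nfil3 (-0.42 ± 0.17) were higher in Dend, with the Nfil3 call ending without any of 8 mice and that of Id2 without any of 3. Spi1, which encodes the myeloid factor PU.1, stood at 409 CPM in Macro and 421 CPM in Dend (medians, 0.02 ± 0.11), and Irf4 at 110.0 CPM in Macro and 107 CPM in Dend (-0.01 ± 0.16), and neither passed the test.

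Markers of other cell types were measured in the same libraries. Of 6 endothelial markers, 2 were tested and both were higher in Macro in 17 of 17 mice, Cdh5 (1.50 ± 0.19, with 0 counts in Dend of 9 mice) and Pecam1 (0.88 ± 0.13). The summed level of the endothelial list was 371 to 878 CPM in Macro and 156 to 477 CPM in Dend, and the 4 untested members went both ways, with 65 counts in Macro and 12 in Dend for Kdr, 44 and 65 for Flt1, 7 and 14 for Tek and 0 and 1 for Emcn. The summed level of the B cell list was 354 to 918 CPM in Macro and 249.9 to 907 CPM in Dend and 0 of 3 tested members differed. For T cells the sums were 284 to 1226 CPM in Macro and 156 to 787 CPM in Dend, with Lef1 (0.58) higher in Macro and Tcf7 (-0.73) in Dend among 5 tested. Of 4 tested plasmacytoid dendritic cell markers, Tcf4 (0.65) and Ccr9 were higher in Macro and Runx2 (-0.37) in Dend. The 3 untested members, among them Siglech, had 101 counts in Macro and 24 in Dend. Siglech stood at 82.8 ± 25.7 CPM in Macro and 14.0 ± 2.90 CPM in Dend of D0_RT mice. In treated mice it stood at 68.9 ± 53.0 and 15.6 ± 20.7 CPM (SD, n = 3 and 14). Pdgfrb was the only stromal marker tested of 7 and was higher in Macro (0.58), the mast cell marker Kit (-0.18 ± 0.16) and the adipocyte marker Lipe (-0.11 ± 0.13) did not pass, and no NK cell or neutrophil marker could be tested. The neutrophil list had 61 counts in Macro and 13 in Dend. The part of these cells in the Macro values was not tested.

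**Figure D3:**
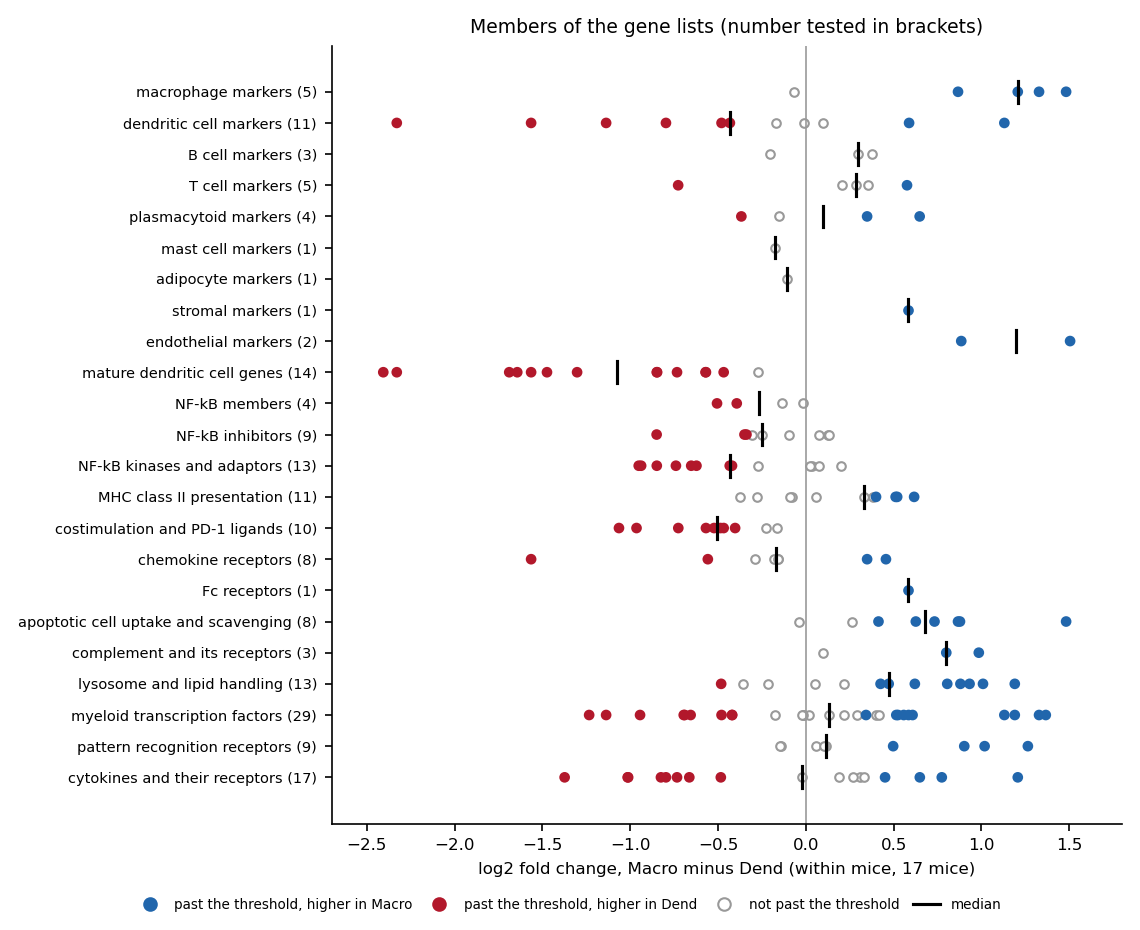
Log2 difference in gene accessibility (Macro minus Dend) of the tested members of each gene list, with blue or red points for genes higher in Macro or Dend at an adjusted p under 0.05, open points for the others and a bar at the median of the tested members. Mature dendritic cell genes lie to the left at a median of -1.08 and macrophage markers to the right at 1.21.

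By a rule of size, the largest changes were listed among genes that averaged 20 or more counts a library and went one way in 17 of 17 mice, which 26 genes higher in Dend and 13 genes higher in Macro met. The first 10 on the Dend side were Synpo2 (-1.71), Akap2 (-1.54), Arhgap31 (-1.49), Pcgf5 (-1.48), Samsn1 (-1.47), Gm12216 (-1.47), Tmem131l (-1.41), Slc22a23 (-1.40), Pakap (-1.34) and Elk3 (-1.34). Akap2 and Pakap are overlapping gene models whose peaks are shared, so they are a single observation. Synpo2, an actin-binding protein, stood at 58.4, 201 and 378 CPM in Macro and 333, 666 and 959.8 CPM in Dend, and Arhgap31, which switches off small GTPases, at 91.7, 209 and 266 and 417, 597 and 915 CPM. The ranges of Akap2 and Arhgap31 did not overlap between the clusters, with 94.6, 184 and 292 CPM for Akap2 in Macro and 415, 543 and 882 CPM in Dend. On the Macro side the 10 were Rgl1 (1.02), Fli1 (0.97), Rasa3 (0.97), Ano6 (0.92), Poc1b (0.87), Arid5b (0.85), Med12l (0.84), Tbxas1 (0.75), Prkce (0.67) and Ppm1h (0.63). Only Med12l and Tbxas1 of these had their highest pooled level in Macro among the 12 clusters. Prkce stood at 1137 CPM in beige adipocytes and 605 CPM in Macro (pooled), and Dend was lowest of all clusters for Rasa3, Arid5b and Prkce. Of the 10 Dend-side genes, Synpo2, Akap2 and Pakap were highest outside Dend. Rgl1, an exchange factor for Ral GTPases, stood at 472, 623 and 1009 CPM in Macro and 55.3, 262 and 583 CPM in Dend. Tbxas1, the thromboxane synthase of platelets and macrophages, stood at 341, 513 and 876 CPM in Macro and 51.9, 277 and 430.1 CPM in Dend. The Macro ranges overlapped those of Dend for both, and of the 10 listed genes that could be tested at promoter peaks alone, 5 did not pass there, Rgl1 at 0.06, Elk3 at -0.15, Poc1b at 0.12, Ano6 at 0.44 and Prkce at -0.00465.

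The distance between the clusters was then compared between conditions, which the clustering did not use. Of the 1864 genes called over all mice, 1732 could be fitted both in the 3 D0_RT mice and in the 14 treated mice alone, and 1726 kept their sign in the D0_RT mice and 1732 in the treated mice. These mice are among those that gave the calls, so the counts describe the spread and are no independent test. No gene passed the test of a different Macro to Dend distance in treated and untreated mice (0 of 910 with edgeR, 57 at an unadjusted p under 0.05, and 0 with DESeq2, 21 at an unadjusted p under 0.05). The smallest p values belonged to Synpo2, whose difference was smaller in size after treatment by 0.84 ± 0.26 (SE), and to Mical3, Mreg, Phlpp1 and Tenm4, all at an adjusted p of 0.428. With mice holding at least 20 nuclei of each cluster, Tenm4 passed alone (1.24 ± 0.30, adjusted p = 0.0461). Synpo2 stood at 115 ± 41.9 CPM in Macro of D0_RT mice and 216 ± 81.2 CPM in Macro of treated mice, and at 729.7 ± 89.9 and 661 ± 162 CPM in Dend (SD, n = 3 and 14).

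Between CL and cold, 0 of 910 genes differed in their distance by edgeR and 0 by DESeq2, with 45 and 31 at an unadjusted p under 0.05. The smallest p belonged to Mast4 (-1.19 ± 0.34, adjusted p = 0.450) and the next to Man1a, Abca1 and Ripor2 (adjusted p = 0.608). For Abca1 the distance was 1.17 ± 0.38 larger in CL than in cold mice on the log2 scale. Fscn1 stood in Dend at 249.5 ± 92.6 CPM in the 8 cold mice and 235 ± 125 CPM in the 6 CL mice (SD), and Mertk in Macro at 264 ± 86.1 and 240.3 ± 94.1 CPM. Of the D3_CL mice only 1 entered these tests.

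**Figure D4:**
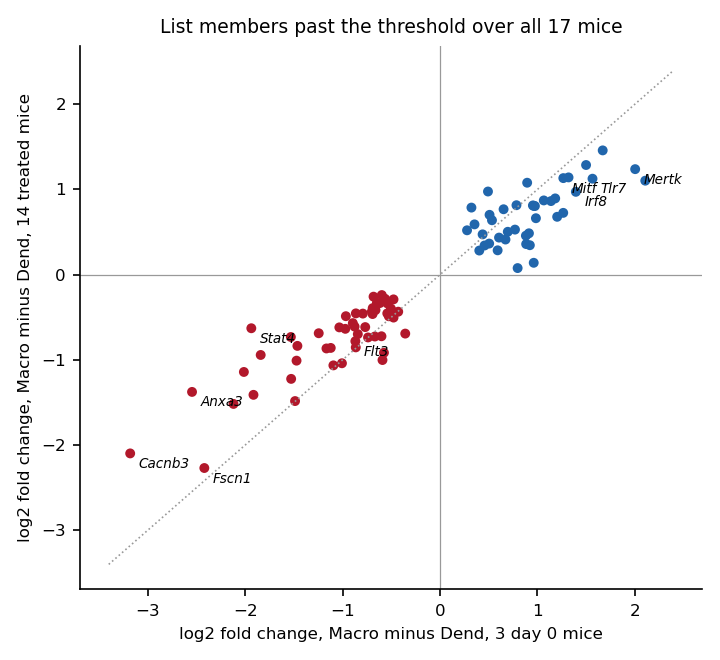
Log2 difference (Macro minus Dend) of the 93 called list genes that could be fitted in the 3 D0_RT mice alone (horizontal axis) and in the 14 treated mice alone (vertical axis), with a dotted line of equal values. All 93 have the same sign in both fits, which use the same mice as the calls.

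Single peaks carried few counts, and none passed a minimum count of 10. At a minimum count of 3, 3986 of 189598 peaks were tested, of which 115 (2.89%) were higher in Macro and 149 (3.74%) in Dend. Promoter peaks, within 2000 bases of a gene start, were 78.1% of those tested, and 107 of 3115 (3.43%) differed, against 157 of 871 (18.0%) outside promoters. Of 170374 deposited peaks outside promoters, those 871 met the count minimum, which the libraries of 1 cluster alone could supply. A peak could thus enter by being open in 1 cluster, and the part of this filter in the 2 shares was not tested. Of the 149 peaks higher in Dend, 132 (88.6%) had their highest pooled level in Dend among the 12 clusters. Of the 115 higher in Macro, 43 (37.4%) were highest in Macro and 40 (34.8%) in B cells. The shares over all tested peaks are not given here. Since a peak could enter through Dend or Macro alone and was called against the other cluster, these percentages partly follow from the filter and the call. The gene nearest to a called peak was tested for 129 Dend peaks and called the same way for 95, and the opposite way for 6. For Macro peaks it was tested for 104, called the same way for 80 and the opposite way for 0. Peak and gene counts share reads, so these counts are no independent check. The number of called peaks, 264 in all, changed with single mice and was 125, 144 and 133 without D0_RT mouse 1, 2 or 3, 149 without D7_C mouse 3, and 49 of 2606 without all D0_RT mice. With DESeq2 it was 151.

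The peaks named next were chosen after their values were seen, as the largest changes with the same direction in 17 of 17 mice, since none reached a mean of 20 counts per library. The first lies upstream of Fscn1 at chr5:142958964-142959571 (mm10), 1076 bases from the gene start by its centre. It was open in 99 of 658 Dend nuclei (15.0%) and in 4 of 950 Macro nuclei (0.421%), and stood at 0, 0 and 84.7 CPM in Macro and 121, 367 and 560.1 CPM in Dend (-1.94 ± 0.20, adjusted p = 5.17e-19). Over all nuclei and scaled to all deposited peaks, the pooled level was 75.2 CPM in Dend and 3.26 CPM in the next cluster, vascular endothelial cells. Percentages of nuclei here and below pool the mice. D0_RT mice 1 and 2 gave 110 and 154 of the Dend nuclei, and 75 and 87 of the Macro nuclei. A peak inside Adora2a, which encodes an adenosine receptor, at chr10:75330248-75330979 stood at 0, 0 and 101 CPM in Macro and 168, 360.1 and 668 CPM in Dend (-1.83 ± 0.19), and 2 further peaks nearest to Adora2a, its promoter included, were higher in Dend. The others were an intergenic peak at chr3:61474135-61475002 (-1.78), a peak nearest to Anxa3 at chr5:96871826-96872563 (-1.69) and a peak inside Tbc1d4 at chr14:101462940-101463575 (-1.55). Of these named Dend peaks, only that in Tbc1d4 had enough counts for the edgeR fit without D0_RT mice (-1.37, adjusted p = 1.22e-06).

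On the Macro side the largest was inside Sfi1 at chr11:3173912-3174660, open in 19.6% of Macro and 4.41% of Dend nuclei (1.68 ± 0.16, adjusted p = 1.22e-19). Around Sfi1, 5 called peaks were higher in Macro and 3 in Dend, so neighbouring peaks of this gene went in opposite directions. A peak inside Wasf2, an actin regulator, at chr4:133169267-133170656 stood at 159, 363 and 524 CPM in Macro and 0, 111 and 245 CPM in Dend (1.08 ± 0.17). Peaks inside Ptp4a3 (1.09) and Rgs10 (0.97) and at the Neurl2 promoter (0.81) followed, and those of Ptp4a3 and Wasf2 were higher still in B cells.

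Among the 264 called peaks, 26 were nearest to a gene of the lists. The share over all tested peaks is not given, so this count does not show an excess of list genes. Those higher in Dend included the Socs2 promoter (-1.48), a peak inside Relb (-1.22), the Il15 promoter (-1.05), an intergenic peak near Nfkbia (-1.03), an intergenic peak near Etv3 (-0.92), the Cd40 promoter (-0.85), an intergenic peak near Rel (-0.78) and 3 peaks inside Samsn1. Thus Relb and Nfkbia, which were untested or did not pass as whole genes, each had a peak higher in Dend. The Relb peak was open in 14.1% of Dend and 2.53% of Macro nuclei, and the Nfkbia peak in 13.1% and 2.74%. Those higher in Macro included a peak near Cxcr4 (0.94), the Tgfb1 promoter (0.78), the Il6ra promoter (0.76), the H2-DMb2 promoter (0.67), the Cebpa promoter (0.57) and a peak inside Tfeb (0.52). Of these, only the Cebpa peak had its highest pooled level in Macro. The Cxcr4 and Il6ra peaks were highest in CD4 T cells, and the Tgfb1, H2-DMb2 and Tfeb peaks in B cells. In the edgeR fit without D0_RT mice the Cxcr4 peak passed (adjusted p = 0.0434), while those of Cebpa (0.464) and Tfeb (0.220) did not. The other Macro peaks named here had too few counts for that fit. Of the Dend peaks named in this paragraph, only that near Rel had enough counts for it (-0.83, adjusted p = 0.0135).

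Sequences are shown for peaks that carry the differences and that hold a motif found in a larger share of windows on that side than on the other. Each is the 300 bases at the centre of the peak on the plus strand of mm10, read from the reference genome, with the match in capitals. The first pair was higher in Dend and holds the NR4A motif AAAGGTCA on the minus strand, the next was higher in Dend and holds the NF-kB motif GGGANTTTC on the minus strand, and the last pair was higher in Macro and holds the AP-1 motif TGANTCA.
Fscn1 peak window, chr5:142959118-142959417: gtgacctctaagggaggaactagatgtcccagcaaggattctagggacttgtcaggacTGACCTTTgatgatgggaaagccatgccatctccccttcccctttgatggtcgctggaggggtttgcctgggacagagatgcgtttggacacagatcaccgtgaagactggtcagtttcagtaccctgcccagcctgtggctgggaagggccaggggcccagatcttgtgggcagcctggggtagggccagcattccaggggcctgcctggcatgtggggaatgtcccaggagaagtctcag
Nfkbia peak window, chr12:55487086-55487385: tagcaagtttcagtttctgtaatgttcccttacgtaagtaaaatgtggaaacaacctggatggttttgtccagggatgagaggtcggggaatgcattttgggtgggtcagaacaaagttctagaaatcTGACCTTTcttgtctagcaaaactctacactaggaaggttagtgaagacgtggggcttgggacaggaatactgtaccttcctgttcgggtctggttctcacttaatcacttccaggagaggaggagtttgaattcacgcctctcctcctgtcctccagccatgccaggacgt
Rbpj peak window, chr5:53509549-53509848: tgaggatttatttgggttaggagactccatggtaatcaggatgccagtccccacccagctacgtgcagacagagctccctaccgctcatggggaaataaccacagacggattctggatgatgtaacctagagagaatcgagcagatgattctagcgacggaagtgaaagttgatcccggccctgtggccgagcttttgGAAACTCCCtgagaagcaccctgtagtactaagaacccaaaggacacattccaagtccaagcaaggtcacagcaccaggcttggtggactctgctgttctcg
Wasf2 peak window, chr4:133169812-133170111: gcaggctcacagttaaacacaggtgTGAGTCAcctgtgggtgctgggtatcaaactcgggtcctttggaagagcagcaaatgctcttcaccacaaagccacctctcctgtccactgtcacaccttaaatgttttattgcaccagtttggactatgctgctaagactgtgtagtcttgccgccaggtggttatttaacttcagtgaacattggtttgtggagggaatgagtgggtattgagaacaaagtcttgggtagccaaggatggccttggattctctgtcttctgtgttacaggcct
Tfeb peak window, chr17:47768783-47769082: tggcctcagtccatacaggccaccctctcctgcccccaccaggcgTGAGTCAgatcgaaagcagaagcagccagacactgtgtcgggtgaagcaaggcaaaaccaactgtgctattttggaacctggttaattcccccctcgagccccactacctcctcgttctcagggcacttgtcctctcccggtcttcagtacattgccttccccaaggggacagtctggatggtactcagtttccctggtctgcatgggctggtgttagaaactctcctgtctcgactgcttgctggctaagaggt
The Rbpj peak lies inside that gene, an effector of Notch signalling, and stood at 39.7, 108 and 491 CPM in Macro and 148, 274 and 486 CPM in Dend (-0.80 ± 0.18).

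Over all called peaks, 11 short motifs were counted on both strands of such windows, with no test. The NF-kB letters GGGANTTTC, a core of the site bound by its subunits, were in 10 of 149 (6.71%) windows higher in Dend and 1 of 115 (0.870%) higher in Macro, against 1.38% of all tested and 2.29% of all deposited peaks. Outside promoters the share was 9 of 94 (9.57%) on the Dend side and 3.56% of tested peaks. The sets differ in promoters, which were 45.2% of Macro, 36.9% of Dend, 78.1% of tested and 10.1% of deposited peaks. The NR4A letters AAAGGTCA, bound by orphan nuclear receptors, were in 9 of 149 (6.04%) Dend windows and 0 of 115 Macro windows, against 0.778% of tested and 2.65% of deposited peaks. Outside promoters they were in 6 of 94 (6.38%) Dend windows, 1.26% of tested and 2.80% of deposited peaks. The AP-1 letters TGANTCA were in 15 of 115 Macro and 11 of 149 (7.38%) Dend windows, with 4.42% of tested and 12.3% of deposited peaks. The MAF letters TTTGCTGA were in 4 of 115 (3.48%) Macro and 2 of 149 (1.34%) Dend windows (0.878% of tested and 2.00% of deposited peaks), and 4 tested windows held both MAF and AP-1 letters. The PU.1 letters GAGGAAGT were in 6 of 115 (5.22%) Macro and 12 of 149 (8.05%) Dend windows, with 3.64% of tested and 4.86% of deposited peaks. Without promoters the PU.1 shares were 6.35% in Macro and 9.57% in Dend windows, with 7.58% of tested and 5.01% of deposited peaks. The RUNX letters TGTGGTTT were in 1 of 115 (0.870%) and 6 of 149 (4.03%), with 1.20% of tested and 3.72% of deposited peaks. Without promoters the RUNX shares were 1.59% in Macro and 4.26% in Dend windows, with 2.64% of tested and 3.94% of deposited peaks. The C/EBP letters TTGCNNAA (9.57% and 8.72%), the IRF letters GAAANNGAA (7.83% and 8.72%) and the ETS-IRF letters GGAANNGAA (10.4% and 10.1%) stood at like shares in Macro and Dend windows, with 6.17%, 6.02% and 7.02% of tested and 18.5%, 11.1% and 10.5% of deposited peaks. The KLF letters GGGTGTGG were in 4 of 115 (3.48%) and 9 of 149 (6.04%), with 3.36% of tested and 3.11% of deposited peaks, and the MITF-TFE letters TCACGTGA in 1 of 115 (0.870%) and 1 of 149 (0.671%), with 1.30% and 0.398%. Without promoters the KLF shares were 6.35% in Macro and 5.32% in Dend windows, with 4.48% of tested peaks. Base composition differed between the sets, with a median GC content of 56.3% in Macro, 55.0% in Dend, 65.2% in tested and 47.7% in deposited windows, of which the last had no count filter. A match describes the letters of a window and not binding.

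**Figure D5:**
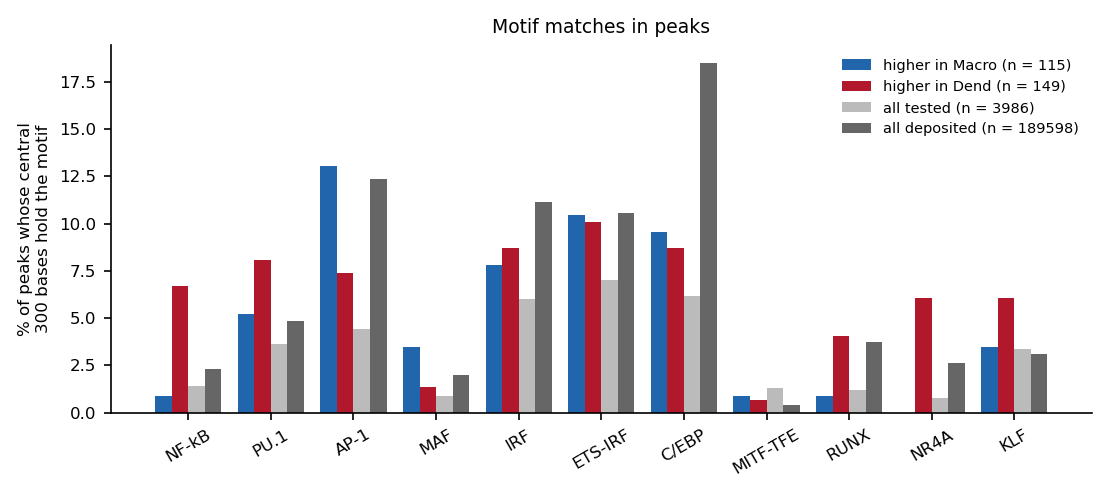
Share of 300-base windows (percent) that hold each motif in peaks higher in Macro, higher in Dend, tested and deposited. NF-kB and NR4A letters reach 6.71% and 6.04% of the Dend windows, and AP-1 letters are in 15 of 115 Macro windows.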

How the data were processed

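Nuclei of frozen iWAT were profiled by snATAC-seq with combinatorial indexing in 4 sequencing lanes that pool the 21 mice. The authors aligned reads to mm10 with Bowtie2, filtered them with SAMtools, called peaks per cluster with MACS2, removed nuclei of low depth and putative doublets, and clustered the rest with Signac. The deposited matrix holds 189598 peaks by 32552 nuclei as a count of 0 or 1, and cluster and mouse come from the deposited annotation. Counts were summed per mouse and cluster over peaks, and over the peaks of each of 17196 GENCODE protein-coding genes (body and 2000 bases upstream). Only 3.43% of peaks counted for more than 1 gene. The test was edgeR's quasi-likelihood F test (version 4.0.16, TMM, prior count of 2, Benjamini-Hochberg threshold 0.05) with the mouse as block, since both libraries of a pair come from the same animal, and DESeq2 (version 1.42.0) was an alternative. Deviations of the paired libraries from their cluster means correlated by -0.04 to 0.09.

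The planned minimum count of 10 left 910 genes and no peak, so a minimum of 3, chosen after seeing the data, was used for named genes and for peaks. Named genes were list members and, per direction, the 10 largest changes with a mean of at least 20 counts and the same direction in every mouse. The 26 gene lists, the motifs and the compared clusters were chosen with earlier results of these data known. Of 316 list genes, 305 had a peak and 161 were tested. The scripts were tested on simulated data. Some list genes are not reported here.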

Additional observations from a re-analysis of the deposited data

How the results depend on the processing

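Of 2941 values of 117 named genes under the alternatives, 2720 kept their direction and their side of the threshold, 216 kept their direction only and 5 changed sign. Most of these values left out 1 mouse (1873 kept both, 68 the direction only), and those fits share most mice with the main fit. The prior count of 0.5 changes the folds and not the p values (117 kept both). At promoter peaks alone 31 kept both, 22 the direction only and 4 changed sign. With D0_RT mice only, 76 kept both and 41 the direction only. At promoter peaks alone Prkce stood at -0.00465, Tnfaip3 at 0.0332, Traf3 at 0.12 and Ikzf1 at -0.031, and with nuclei thinned to 500 counts Tnip1 stood at 0.124, in each case without passing. Leaving out a mouse ended the calls of 19 genes, among them Cd80, Dpp4, Lipa and Runx2 without D0_RT mouse 3, Map3k14 without D0_RT mouse 2, Maf without D1_C mouse 3, and, each without any of 2 to 9 mice, Ccr9, Cd200, Cd274, H2-DMb2, Id2, Itgb5, Nfil3, Nfkb2, Npc2, Tlr6, Tnfaip3 and Tnip1.

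At a minimum count of 10 the 554 called genes were 504 with DESeq2, 924 of 4341 with D0_RT mice only, 354 of 714 without D0_RT mice, 2305 of 16946 with no filter, 184 of 290 without nuclei of lymphocyte signal and 453 to 552 without any single mouse, while a minimum of 3 gave 1864. At that minimum they were 1124 with D0_RT mice only, 1130 without D0_RT mice, 212 of 698 with thinned nuclei, 998 of 3716 without nuclei of lymphocyte signal, 261 of 4409 at promoter peaks and 1525 to 1842 without any single mouse. The 264 called peaks were 151 with DESeq2, 1487 of 13577 with D0_RT mice only, 49 without them, 8082 of 167660 with no filter, 13 of 654 without nuclei of lymphocyte signal and 125 to 282 without any single mouse. Fewer features passed the count minimum in the smaller libraries, and the cause was not tested further. Without the replicate block, that is without pairing by mouse, 560 genes at a minimum of 10, 1944 at a minimum of 3 and 286 peaks were called, which moved none of these counts by over 1.5 times.

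The difference in distance between treated and D0_RT mice gave 0 genes with no filter, with DESeq2, at a minimum of 3, without the replicate block, with mice of at least 5 nuclei and without any single mouse, and 1 with mice of at least 20 nuclei. That between CL and cold gave 0 under each of these. Neither was run without nuclei of lymphocyte signal. The share difference was 20.5 to 34.4 points without any single mouse (exact permutation p from 0.00526 to 0.0947) and 1.90 as a log2 ratio (exact permutation p = 0.0526). The depth ratio was -0.22 to -0.11 without any single mouse and -0.35 with mean counts (permutation p = 0.00066). Thinned nuclei and promoter peaks left too few features for the tests at a minimum of 10 and for peaks, and these alternatives were not run. The smallest Dend libraries, of 10 nuclei, limit the precision in treated mice.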
